A study of Mus musculus with 48 samples.

Results

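The comparison described here sets 4 sWAT libraries labelled 4 PM against 4 libraries labelled 12 PM, all from mice on twice-a-night (TAN) feeding. These 8 libraries were taken by column name from a count table that holds 48, for 2 diets and 6 labelled times. Ad-lib libraries of the same labels, also 4 a time, are set beside the TAN libraries below. All 48 libraries enter the main fit, which shares 1 estimate of the spread. The mice were C57BL/6 by the labels (male C57BL/6J in the article), 8 months of age, with no transgene or deletion. TAN-fed mice had food between 9 and 11 p.m. and again between 5 and 7 a.m., and the lights were off between 8 p.m. and 8 a.m. The study's methods give 6 months of this regimen, and ad-lib mice always had food. The tissue, inguinal white fat, is called a stromal vascular fraction in the design text and whole fat pad in the article. Each library carries a replicate number from 1 to 4, but no label says that the numbers mark separate mice, so p-values measure the spread between libraries. The pair of times compares RNA in this tissue at 2 points with no meal between them. RNA of other tissues also differed between the 2 groups, as described below.

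The clock hour of these libraries can be read in 2 ways. By the count-table labels they fell 5 h (12 PM) and 9 h (4 PM) after the end of the morning meal, in the light. The study's own supplementary listings of FPKM per library place the same libraries 12 h away. Counts divided by gene length and total matched those listings over 973 genes in one and 18 in the other, and in both, the closest entry of all 8 libraries was the same replicate at the opposite half-day (0 of 8 matched their own label; the same held for 48 of 48 libraries). On that reading the libraries are midnight and 4 a.m. samples, taken 1 h and 5 h after the evening meal and with the lights off. The order of the 2 groups, the 4 h between them and the absence of a meal between them are the same under both readings. The labels of the count table are kept below, and the reading was not settled here.

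Fat tissue carries its own circadian clock. In its core, BMAL1 (encoded by Arntl) pairs with CLOCK or NPAS2 on E-box DNA and switches on the Per and Cry repressors, the REV-ERB repressors Nr1d1 and Nr1d2, and the PAR bZIP factors Dbp, Tef and Hlf, which act on D-box DNA. REV-ERBs in turn shut Arntl, Npas2 and Nfil3 off through RORE sites. In mice with an intact night feeding rhythm, Arntl RNA in peripheral tissue is known to be high around the change from night to day and low around the change from day to night, with Dbp in antiphase. Feeding also drives lipid synthesis in adipocytes, through insulin, SREBP factors and ChREBP, while fasting favours lipolysis.

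RNA of other tissues differed between the labelled times in TAN libraries. Whether it accounts for any result below was not tested. Lymph node RNA was checked by the summed level of 30 markers of B cells, T cells and lymph node stroma and venules, in CPM, the counts scaled to a common library total. At 12 PM, replicates 1 to 4 had 2081, 2270, 1869 and 1019 CPM, and at 4 PM they had 80.2, 25.3, 649 and 44.6 CPM. The groups did not overlap, with a difference in mean log2 level of -4.31 (exact permutation test over 70 splits, two-sided p = 0.0286, the smallest that 4 against 4 allows), and replicate 3 at 4 PM lay between the other 4 PM libraries and the 12 PM group. Glycam1, a high endothelial venule mucin, read 16.6 to 33.8 CPM at 12 PM and 0, 0, 0.558 and 12.96 CPM at 4 PM. Ad-lib libraries went another way: all 4 at 4 PM carried node RNA (1969 to 3413 CPM), and at 12 PM replicates 2 and 4 did (3577 and 2731 CPM) while replicates 1 and 3 did not (64.8 and 35.1 CPM).

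Skeletal muscle RNA was also on the 12 PM side. The 10 muscle markers summed to 1893, 392, 29.9 and 217 CPM at 12 PM and to 21.7, 12.3, 13.8 and 5.02 CPM at 4 PM. Ckm, the creatine kinase of muscle, read 217, 36.1, 1.06 and 24.5 CPM at 12 PM, and at 4 PM it was at 0 counts but for 3 counts in replicate 2. All 10 muscle markers were lower at 4 PM at a nominal p under 0.05, beside 13.2% of all genes. Without 12 PM replicate 1, 6 of them were, beside 2073 of all 19977 genes. Of the ad-lib libraries of these 2 labels, replicate 3 at 12 PM held 3258 CPM and none of the other 7 passed 35.4 CPM. Adipocyte markers, whose share rises as that of other RNA falls, summed to 33743 to 47989 CPM at 12 PM and to 58751 to 91242 CPM at 4 PM. In bulk tissue, fewer cells of a type and less RNA per cell cannot be told apart. Adipoq and other adipocyte genes were abundant in every library. Total counts ran from 17079789 to 24962579 in the 8 libraries, and 4.89% to 8.52% of counts came from mitochondrially encoded genes. To set results beside these levels, each gene was also fitted with the mean level of the B and T cell markers as a covariate (the lymphocyte covariate), and with libraries scaled to the adipocyte markers. The covariate itself did not overlap between the groups (mean log2 CPM of 4.85 to 6.01 at 12 PM and -0.74 to 4.08 at 4 PM). Its slope comes from the spread within the 12 groups of the fit, so values with the covariate extrapolate. They cannot separate labelled time from node RNA.

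**Figure D1:**
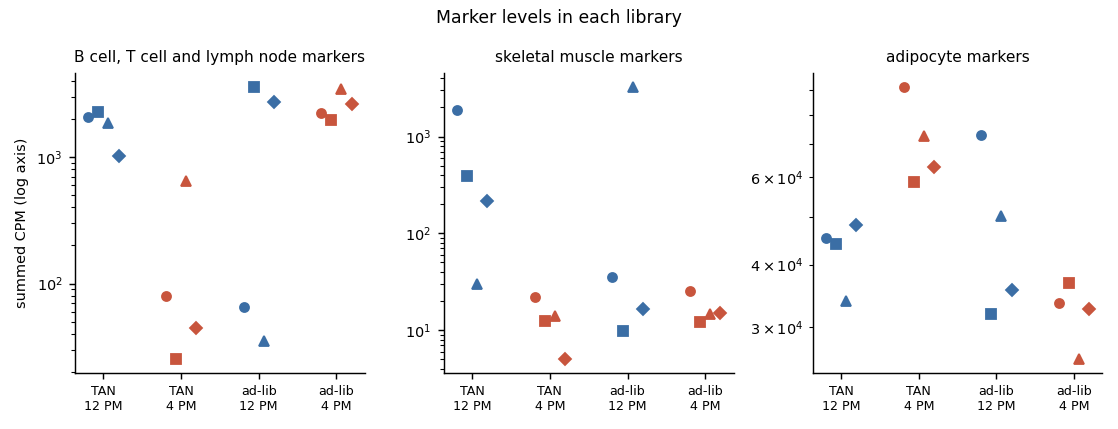
Summed CPM (log axis) of B cell, T cell and lymph node markers, of skeletal muscle markers and of adipocyte markers in each library of the 4 groups; circle, square, triangle and diamond are replicates 1 to 4, blue is 12 PM and red is 4 PM. The 4 TAN libraries at 4 PM (25.3 to 649 CPM) lie below the 4 at 12 PM (1019 to 2270 CPM) in the lymph panel, and above them in the adipocyte panel.

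Over all 19977 genes tested, 1 gene passed an adjusted p under 0.05 (0.00501% of those tested). That gene was Arntl, lower at 4 PM. At a nominal (unadjusted) p under 0.05, 812 genes were higher at 4 PM (4.06% of those tested) and 2645 were lower (13.2%), with a median log2 fold change over all genes of -0.12. With no overlap between the groups as the yardstick, 907 genes were higher (4.54%) and 2413 lower (12.1%). The lymphocyte covariate brought the counts at a nominal p under 0.05 to 426 higher (2.13%) and 1099 lower (5.5%). The fit of 48 libraries shares its estimate of the spread among 12 groups, the mixed ad-lib 12 PM group among them. Scaled to the adipocyte markers, which shifted the median over all genes to -0.76, the split was 31 higher and 3774 lower. The 8 libraries fitted alone gave 149 higher (0.746%) and 661 lower (3.31%) at an adjusted p under 0.05, and DESeq2 on all 48 gave 92 and 688. The number of higher genes at a nominal p under 0.05 fell below 812 by more than 1.5 times without 12 PM replicate 1 (478), 12 PM replicate 3 (506) or 4 PM replicate 1 (352).

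Arntl, on chromosome 7 (113207465 to 113314126, GRCm38, plus strand), encodes BMAL1, the partner that the clock cannot run without. It read 19.8, 17.7, 21.3 and 17.1 CPM in 12 PM replicates 1 to 4 and 7.57, 3.46, 3.24 and 2.40 CPM at 4 PM. Every 4 PM library lay well under every 12 PM library. The means were 18.97 ± 1.94 CPM and 4.17 ± 2.31 CPM (SD, n = 4 each), a log2 fold change of -2.19 (SE 0.38, adjusted p = 0.0157; edgeR quasi-likelihood fit, Benjamini-Hochberg). With the lymphocyte covariate, which did not overlap between the groups, the value was -2.28 (adjusted p = 0.0147). With libraries scaled to the adipocyte markers it was -2.88 with an adjusted p of 0.194. The call depended on which libraries were fitted: it was kept without 12 PM replicate 2 or 4 or 4 PM replicate 1, and lost without 12 PM replicate 1 (adjusted p = 0.0569) or 3 (0.0963) and without 4 PM replicate 2 (0.123), 3 (0.0653) or 4 (0.188). The log2 fold change stayed between -2.63 and -1.98 in these 8 fits. With the 8 libraries alone the adjusted p was 0.00758, with the 24 TAN libraries alone it was 0.0596, and with limma voom on all 48 it was 0.0700.

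Of the 18 clock genes listed, 8 were higher and 3 lower at a nominal p under 0.05, beside 4.06% and 13.2% of all genes, and their median log2 fold change was 0.81 beside -0.12. Leaving out any 1 of the 8 libraries left 7 to 9 higher and 3 to 4 lower, with the lowest median, 0.52, without 4 PM replicate 2. With the lymphocyte covariate 6 were higher and 4 lower (2.13% and 5.5% of all genes) with a median of 0.44. Scaled to the adipocyte markers 5 were higher and 6 lower (31 and 3774 of all 19977 genes), with a median of 0.18 beside -0.76. In the fit of the 8 libraries alone, 6 clock genes were higher (Dbp, Tef, Hlf, Nr1d2, Ciart and Bhlhe41) and 1 was lower (Arntl) at an adjusted p under 0.05. Over all genes the shares there were 0.746% and 3.31%. Clock genes beyond the list's leading 4 (Arntl, Npas2, Nr1d1 and Per2) were named after their values were seen.

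Promoter sequences show which of these genes carry clock elements next to their start sites. The 250 bases upstream of RefSeq start sites (GRCm38.p6) were searched on both strands for the E-box CACGTG, the D-box TTATGTAA or TTATGCAA, and the RORE TAGGTCA or TAGGTTA. A promoter entry was held for 15 of the 18 clock genes. An E-box stood in 5 of them (Ciart, Bhlhe41, Cry1, Per1 and Tef) and in 6.02% of all 32851 promoters, a D-box in 2 (Per3 and Per1) and in 1.501% of all, and a RORE in 1 (Nfil3) and in 3.48% of all. Here and below, a gene counted if any of its promoter entries matched, while the share over all is of single entries. Genes with several entries thus had more chances to match. A match describes letters in this window and no binding was measured. The stretches below, on the strand of the gene and with the element in capitals, belong to genes on both sides of the comparison.
Ciart, chr3:95882312-95882371, minus strand: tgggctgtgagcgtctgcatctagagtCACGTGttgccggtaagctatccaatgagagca
Ciart, chr3:95882254-95882313, minus strand: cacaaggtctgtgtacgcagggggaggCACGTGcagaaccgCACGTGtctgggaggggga
Bhlhe41, chr6:145865541-145865600, minus strand: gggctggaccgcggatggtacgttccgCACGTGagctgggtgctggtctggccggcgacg
Tef, chr15:81802519-81802578, plus strand: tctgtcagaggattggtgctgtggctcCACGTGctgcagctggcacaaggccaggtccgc
Cry1, chr10:85185082-85185141, minus strand: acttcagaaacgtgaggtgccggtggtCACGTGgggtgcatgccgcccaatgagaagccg
Per3, chr4:151044837-151044896, minus strand: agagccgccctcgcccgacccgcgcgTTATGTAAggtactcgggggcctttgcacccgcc
Nfil3, chr13:52981040-52981099, minus strand: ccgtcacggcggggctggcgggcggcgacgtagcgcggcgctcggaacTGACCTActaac

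Among the activators, Npas2, which can stand in for CLOCK beside BMAL1, read 2.72, 2.39, 3.79 and 2.42 CPM at 12 PM and 1.04, 0.540, 0 and 0 CPM at 4 PM, again without overlap (log2 fold change -2.85, adjusted p = 0.143). Clock itself read 89.3 to 146 CPM at 12 PM and 52.0 to 112 CPM at 4 PM, with groups that overlapped (-0.43, adjusted p = 0.421). Nfil3, a repressor of D-box genes whose promoter stretch with a RORE is printed above, read 6.59 to 10.7 CPM at 12 PM and 1.62 to 5.98 CPM at 4 PM, without overlap (-1.12, adjusted p = 0.181).

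The D-box activators lay higher in every 4 PM library than in any 12 PM library. Dbp read 20.4, 30.1, 38.8 and 35.0 CPM at 12 PM and 75.4, 215, 161 and 164 CPM at 4 PM. The means were 31.1 ± 7.99 and 154 ± 58.0 CPM (SD, n = 4 each), a log2 fold change of 2.31 (SE 0.51, adjusted p = 0.110). Hlf read 13.7 to 27.4 CPM at 12 PM and 51.3 to 98.6 CPM at 4 PM (log2 fold change 1.99, adjusted p = 0.110). Tef, with an E-box in the stretch above, read 108 to 133 CPM at 12 PM and 226 to 401 CPM at 4 PM (log2 fold change 1.44, adjusted p = 0.110). All 3 factors thus failed the correction over all genes in the fit of 48 libraries, while in the 8 libraries alone their adjusted p were 0.00376 (Dbp), 0.00286 (Hlf) and 0.0041 (Tef). In each, 4 PM replicate 1 held the lowest level of its group. The log2 fold changes with the lymphocyte covariate were 2.22 (Dbp), 1.56 (Hlf) and 0.98 (Tef).

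Of the repressors, Ciart, an inhibitor of the CLOCK and BMAL1 pair with several E-boxes in the stretches above, read 0.462, 0.525, 0.655 and 0.594 CPM at 12 PM and 3.60, 14.2, 4.12 and 15.01 CPM at 4 PM (log2 fold change 4.03, SE 1.01, adjusted p = 0.110). Its 4 PM libraries formed a pair near 4 CPM, replicates 1 and 3, and a pair near 14 to 15 CPM, replicates 2 and 4. The same split stood in Per2, at 2.69 and 3.05 CPM in replicates 1 and 3 and at 19.02 and 18.03 CPM in replicates 2 and 4, beside 2.72 to 4.84 CPM at 12 PM. Per3 read 49.4 and 34.2 CPM in the former pair and 114 and 134 CPM in the latter, and Per1 read 5.07 and 13.5 CPM against 32.3 and 34.6 CPM. The groups of the 3 Per genes therefore overlapped, with log2 fold changes of 0.72 (Per1, adjusted p = 0.468), 1.59 (Per2, 0.176) and 1.70 (Per3, 0.146). Replicates 1 and 3 were also the 4 PM libraries with the most node RNA (80.2 and 649 CPM against 25.3 and 44.6 CPM), and whether the Per levels moved with it was not tested.

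The REV-ERB genes differed from each other. Nr1d2 read 108 to 128 CPM at 12 PM and 226 to 288 CPM at 4 PM, without overlap (log2 fold change 1.06, adjusted p = 0.125). Nr1d1 read 56.2, 70.2, 92.03 and 85.4 CPM at 12 PM and 68.0, 243, 103 and 137 CPM at 4 PM, with overlap through replicate 1 (0.86, adjusted p = 0.392; 0.43 without 4 PM replicate 2 and 0.30 with the lymphocyte covariate). Bhlhe41, an E-box repressor, went from 10.3 to 16.7 CPM at 12 PM to 34.2 to 93.7 CPM at 4 PM (1.97, adjusted p = 0.116), and its relative Bhlhe40 overlapped (0.76, adjusted p = 0.526; 0.0026 with the covariate). Cry1 lay lower at 4 PM without overlap (12.0 to 14.5 CPM and 6.10 to 11.1 CPM; -0.51, adjusted p = 0.299), while Cry2 differed by 0.33 (adjusted p = 0.678).

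**Figure D2:**
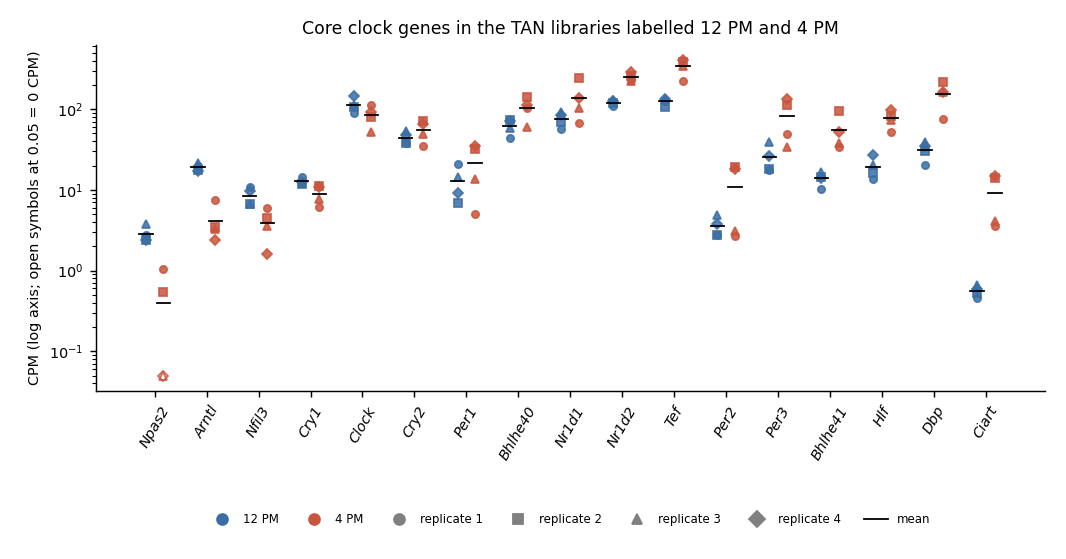
CPM (log axis) of 17 of the 18 clock genes in each TAN library, ordered by log2 fold change; blue is 12 PM, red is 4 PM, shapes are replicates 1 to 4 and bars are means. Arntl and Npas2 separate downwards and Dbp, Hlf, Tef and Ciart upwards, and Per1 and Per2 in 4 PM replicates 1 and 3 sit near the 12 PM libraries; open symbols drawn at 0.05 stand for 0 CPM.

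Across all 6 labelled times, the TAN libraries labelled 4 PM stood near the extremes of the clock. The mean of Arntl in TAN was highest at 8 AM (46.0 CPM), passed 18.97 CPM at 12 PM and was lowest at 4 PM (4.17 CPM), with 8 PM next to it at 4.33 CPM and not distinct from it beyond the spread (SD 2.31 and 2.59). Dbp had its highest TAN mean at 4 PM (154 ± 58.0 CPM), and 8 PM (128 ± 97.9 CPM) lay within the spread. Nr1d1 climbed earlier, from 12.1 CPM at 8 AM to 75.9 CPM at 12 PM and 138 CPM at 4 PM, and was back at 32.2 CPM at 8 PM. Cry1 was lowest at 4 PM (9.001 CPM) and at 35.7 CPM by 8 PM. Nfil3 was lowest at 4 PM as well (3.89 CPM, against 27.8 CPM at 8 AM). The phases are given by label; under the other reading each moves by 12 h.

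**Figure D3:**
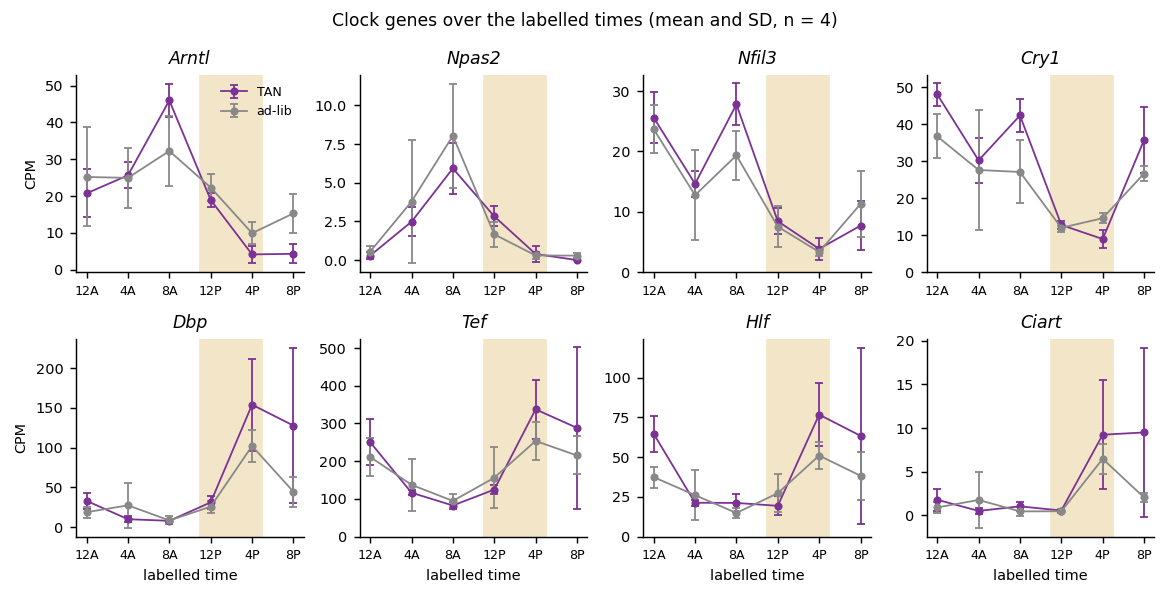
Mean CPM and SD (n = 4) of 8 clock genes at the 6 labelled times in TAN (purple) and ad-lib (grey); the shaded band spans the labels 12 PM and 4 PM. Arntl, Npas2 and Nfil3 descend through the band in both diets and Dbp, Tef, Hlf and Ciart ascend through it.

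The ad-lib libraries of the same 2 labels went the same way for most clock genes. Over the 18 genes the ad-lib median log2 fold change was 0.57, with 8 higher and 4 lower at a nominal p under 0.05 (4.41% and 8.14% of all genes). Arntl differed by -1.17 in ad-lib and -2.19 in TAN, Dbp by 1.99 and 2.31, Ciart by 3.75 and 4.03, and Nfil3 by -1.16 and -1.12. The test of the difference between diets in edgeR called 0 genes at an adjusted p under 0.05. At a nominal p under 0.05, 2344 genes were higher in TAN (11.7%) and 3209 lower (16.1%), and at an adjusted p under 0.05 DESeq2 gave 1059 and 1291 and limma voom 504 and 2187. For Arntl this difference was -1.02 (adjusted p = 0.183), for Hlf 1.09 (0.208) and for Bhlhe41 1.42 (0.184). None of the clock genes passed, and the smallest adjusted p among them was 0.151, for Cry1, which differed by -0.51 in TAN and 0.28 in ad-lib.

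Other genes were followed by the roles of fat. Fatty acid synthesis overlapped between the 2 times. Fasn, fatty acid synthase, read 2895 to 4462 CPM at 12 PM and 1642 to 4761 CPM at 4 PM (log2 fold change -0.06, adjusted p = 0.971). Acly, which makes cytosolic acetyl-CoA, read 1596 to 3432 CPM and 859 to 3792 CPM (-0.40, adjusted p = 0.729). Acaca, which makes malonyl-CoA, read 1236 to 2163 CPM and 374 to 2999 CPM (-0.09, adjusted p = 0.960), and the elongase Elovl6 442 to 1510 CPM and 204 to 1376 CPM (-0.32, adjusted p = 0.833). At 4 PM, replicate 4 held the most and replicate 3 the least of Acly, Acaca and Elovl6. The desaturases, named after their values were seen, differed in sign with no covariate. Scd2 had a lower mean at 4 PM, with overlap (600 to 1221 CPM against 285 to 794 CPM, -0.74, adjusted p = 0.282). Scd1 had a higher mean (0.38, adjusted p = 0.747), and its value was negative with the lymphocyte covariate.

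As a group, 1 of the 14 fatty acid synthesis genes was lower and 0 were higher at a nominal p under 0.05, beside 13.2% and 4.06% of all genes, and the median log2 fold change was -0.19 beside -0.12. The group's value depended on how other RNA was treated. Under the lymphocyte covariate 8 of 14 were lower (5.5% of all genes) with a median of -1.05, and 0 passed an adjusted p under 0.05. With both the lymphocyte and the muscle markers as covariates the median was -0.68 beside -0.06, with 2 lower (608 of all 19977 genes). Scaled to the adipocyte markers the median was -0.77, at the -0.76 of all genes, with 5 lower (3774 of all 19977 genes). Without 12 PM replicate 4 or 4 PM replicate 3 the median with no covariate was 0.0032 or 0.02. At the entry of sugar, Slc2a5, the fructose carrier GLUT5, overlapped (-0.49, adjusted p = 0.759), and Txnip, a glucose-responsive brake on glucose uptake, read 870 to 1262 CPM at 12 PM and 1469 to 2351 CPM at 4 PM without overlap (0.79, adjusted p = 0.176).

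Several sterol genes lay lower at 4 PM. Srebf2, the transcription factor that drives this pathway and chosen after its values were seen, read 71.8, 62.2, 71.6 and 52.5 CPM at 12 PM and 18.3, 36.1, 38.1 and 33.7 CPM at 4 PM. The groups did not overlap, with means of 64.5 ± 9.20 and 31.6 ± 9.01 CPM (SD, n = 4 each; log2 fold change -1.03, SE 0.36, adjusted p = 0.162 in the fit of 48 libraries and 0.0313 in the 8 libraries alone). With the lymphocyte covariate the value was smaller, at -0.33. Chosen in the same way, Cyp51, a lanosterol demethylase, read 41.0 to 79.8 CPM and 34.5 to 43.4 CPM (-0.79, and -1.04 with the covariate), and Mvd, a mevalonate decarboxylase, 10.3 to 19.9 CPM and 5.97 to 9.24 CPM (-0.97, and -0.96). Hmgcs1, a synthase early in the pathway, differed by -0.61, and by -1.29 with the covariate.

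Among the 23 genes of cholesterol synthesis and uptake, 6 were lower and 0 higher at a nominal p under 0.05 (13.2% and 4.06% of all genes), with a median log2 fold change of -0.36. Leaving out 1 library at a time left 5 to 7 lower. Under the lymphocyte covariate 12 were lower (5.5% of all genes) with a median of -0.63 beside -0.11. With lymphocyte and muscle covariates 12 were lower (608 of all 19977 genes) with a median of -0.67 beside -0.06. Scaled to the adipocyte markers the median was -0.97 beside -0.76, with 15 lower (3774 of all 19977 genes). None of the 23 passed an adjusted p under 0.05 in these fits. Sqle (squalene epoxidase) and Insig1 (the ER anchor of SREBP) differed by -0.61 and -0.35, and by -1.04 and -1.26 with the lymphocyte covariate. In ad-lib libraries the median of the list was -0.69, with Hmgcs1 at -1.57 and Srebf2 at 0.80. The sterol response element TCACNCCAC stood in the upstream 250 bases of 1 of the 15 listed genes with a promoter entry, Hmgcs1, and in 1.05% of all promoters, and an E-box stood in 4 of the 15. The Hmgcs1 stretch is shown because that gene had the most negative value of the list with the covariate.
Hmgcs1, chr13:119690189-119690248, plus strand: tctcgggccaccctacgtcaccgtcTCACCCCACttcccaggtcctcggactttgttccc

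**Figure D4:**
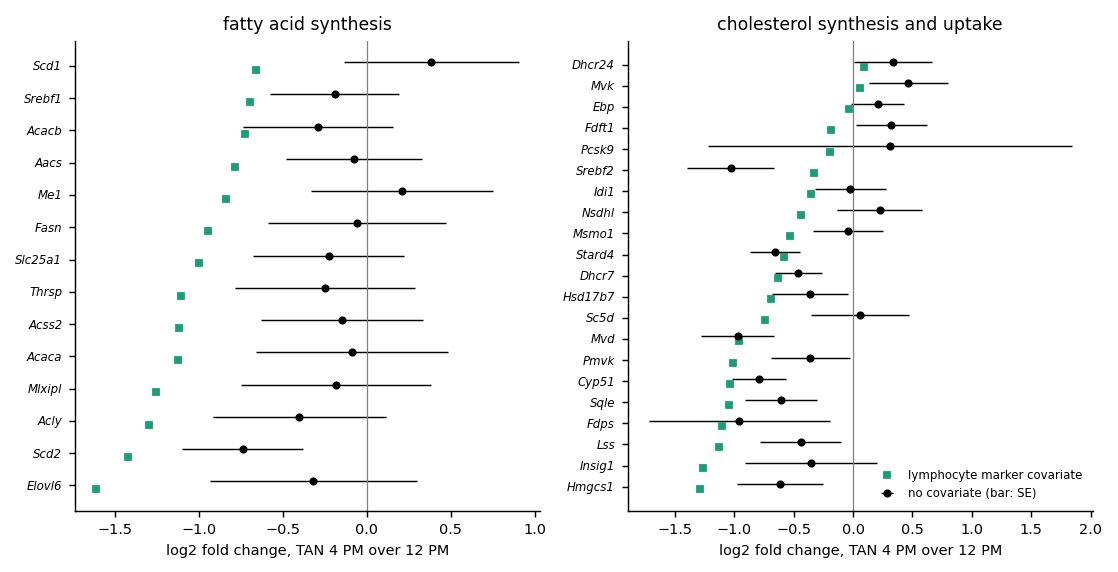
Log2 fold change of the 14 listed genes of fatty acid synthesis and of 21 of the 23 of cholesterol synthesis and uptake, with no covariate (black, bars are SE) and with the lymphocyte covariate (green). The green values lie left of the black ones for every fatty acid synthesis gene and for most sterol genes, with Srebf2, Stard4 and Mvd to the right.

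Among 15 lipolysis and lipid droplet genes, 3 lay higher at 4 PM without overlap and 0 lower (4.54% and 12.1% of all genes). Pnpla2 and Lipe overlapped between the times. Pnpla2, the triglyceride lipase ATGL, read 1059 to 1490 CPM at 12 PM and 1277 to 1856 CPM at 4 PM (0.32, adjusted p = 0.720), and Lipe, hormone-sensitive lipase, 730 to 958 CPM and 935 to 1745 CPM (0.63, adjusted p = 0.373). Of 15 lipolysis and lipid droplet genes 13 had a positive log2 fold change (8572 of 19977 over all genes), 1 of them at a nominal p under 0.05 (4.06% of all genes), and the median of 0.41 was -0.15 with the lymphocyte covariate and -0.22 scaled to the adipocyte markers (-0.76 over all genes). Chosen after its values were seen, Gpat4, which starts glycerolipid synthesis, read 140 to 213 CPM and 296 to 370 CPM (1.05, adjusted p = 0.130, and 0.0107 in the 8 libraries alone; 0.54 with the covariate). Aqp7, the glycerol channel of adipocytes and chosen likewise, read 111 to 172 CPM and 216 to 364 CPM (0.89, adjusted p = 0.0387 in the 8 libraries alone) and was at 0.07 with the covariate. Of the 11 fatty acid uptake genes 9 were positive (8572 of 19977 over all genes), 1 of them at a nominal p under 0.05 (4.06% of all genes). Their median was 0.50, and -0.19 with the covariate. Among them, Gpihbp1, which holds lipoprotein lipase on capillaries, read 74.7 to 121 CPM and 132 to 212 CPM (0.80) and was at -0.03 with the covariate. Ppp1r3b, a glycogen-targeting subunit, read 37.6 to 246 CPM and 31.3 to 103 CPM, with overlap (-1.12, adjusted p = 0.473).

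Of the 11 adipokine genes, 2 were higher and 0 lower at a nominal p under 0.05 (4.06% and 13.2% of all genes). Lep, leptin, read 203, 471, 703 and 686 CPM at 12 PM and 997, 929, 1172 and 942 CPM at 4 PM, without overlap (0.97, SE 0.62, adjusted p = 0.423). Adipoq, adiponectin, read 2370 to 3286 CPM and 3414 to 6069 CPM (0.73, adjusted p = 0.438). Among genes chosen after their values were seen, Rarres2, chemerin, read 86.6 to 154 CPM and 171 to 357 CPM (1.06, adjusted p = 0.176, and 0.034 in the 8 libraries alone), and Nnat, neuronatin, 104 to 688 CPM and 664 to 1636 CPM (1.52, adjusted p = 0.143). The median over the 11 adipokine genes was 0.77 beside 0.64 for the 10 adipocyte markers, and with the lymphocyte covariate the 2 medians were 0.02 and -0.08. Scaled to the adipocyte markers they were 0.13 and 0.01. That scaling holds the marker median close to no change by construction, because those genes set the scale. With the lymphocyte covariate Lep and Adipoq were at 0.02 and -0.06 and Nnat at 1.005. The lists of mitochondrial respiration (26 genes), fatty acid oxidation (20 tested), the TCA cycle (21) and branched-chain amino acid breakdown (17) had medians of 0.48, 0.43, 0.41 and 0.48, with 5, 2, 3 and 2 genes higher at a nominal p under 0.05 (4.06% of all genes). These counts moved with single libraries. Respiration had 0 higher without 12 PM replicate 3 or 4 PM replicate 1, and 12 without 4 PM replicate 2. Fatty acid oxidation had 0 without 12 PM replicate 1, 2 or 3 or 4 PM replicate 4, branched-chain amino acid breakdown 0 without 12 PM replicate 1, 2 or 3 or 4 PM replicate 1, and the TCA cycle 1 without 12 PM replicate 1 or 3 and 7 without 12 PM replicate 4. With the covariate the medians of the 4 lists were 0.07, -0.08, -0.01 and -0.09, with 0 genes higher at that level, and scaled to the adipocyte markers they were -0.15, -0.21, -0.22 and -0.15.

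**Figure D5:**
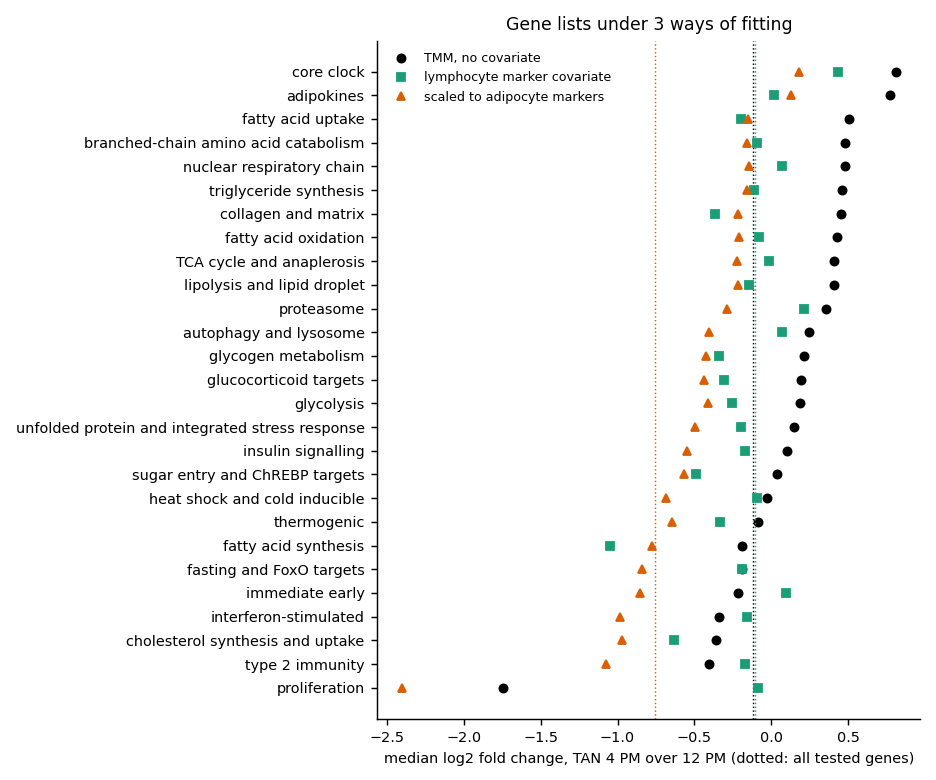
Median log2 fold change (4 PM over 12 PM in TAN) of each of the 27 process lists with no covariate (black), with the lymphocyte covariate (green) and scaled to the adipocyte markers (orange); dotted lines are the medians over all tested genes. Core clock leads on the positive side with no covariate (0.81), and the fatty acid and cholesterol synthesis lists have the lowest green medians (-1.05 and -0.63).

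Fasting genes did not share a direction. Pdk4, the kinase that shuts pyruvate oxidation down in a fast, read 46.9 to 102 CPM at 12 PM and 46.4 to 94.4 CPM at 4 PM (-0.07, adjusted p = 0.958). Klf15, a fasting and glucocorticoid factor, read 64.5 to 94.5 CPM and 106 to 139 CPM (0.72, adjusted p = 0.370, and 0.0361 in the 8 libraries alone), and was at 0.00 with the lymphocyte covariate. Bnip3, a mitophagy receptor chosen after its values were seen, read 279 to 379 CPM and 523 to 883 CPM (0.99, adjusted p = 0.253; 0.29 with the covariate). Lower at 4 PM without overlap were Sesn1, a stress-induced brake on mTORC1 (-0.54, adjusted p = 0.166), and Cdkn1a, the p21 cell cycle inhibitor chosen likewise, at 25.8 to 28.5 CPM and 10.7 to 18.01 CPM (-1.03, adjusted p = 0.170; -1.36 with the covariate). Of the 16 fasting and FoxO genes, 1 was higher and 4 lower at a nominal p under 0.05 (4.06% and 13.2% of all genes), with a median of -0.19 that ran from -0.05 without 4 PM replicate 3 to -0.29 without 12 PM replicate 4. Among these 4 was Trim63, a muscle ligase with no count at 4 PM. Among glucocorticoid targets, Mt1, a metallothionein chosen after its values were seen, read 53.8 to 68.0 CPM and 127 to 182 CPM (1.36, SE 0.35, adjusted p = 0.110, and 0.00252 in the 8 libraries alone), and was at 0.71 with the covariate.

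Of 15 proliferation genes 11 were lower and 0 higher at a nominal p under 0.05 (13.2% and 4.06% of all genes), with a median of -1.75, and with the lymphocyte covariate 1 was lower (5.5% of all genes) with a median of -0.09. That gene was Top2a, the topoisomerase of dividing cells, at 26.1, 12.6, 21 and 13.5 CPM at 12 PM and 1.95, 2.43, 1.57 and 0.558 CPM at 4 PM (-3.49, adjusted p = 0.110; -1.56 with the covariate). Node markers summed to 649 CPM in 4 PM replicate 3, where Top2a read 1.57 CPM. The ad-lib 12 PM libraries, some with node RNA and some without, ran from 1.12 to 22.8 CPM in Top2a. Mki67 read 2.38 to 9.14 CPM and 0.223 to 1.77 CPM (-2.56, and -0.87 with the covariate). Il5ra, the receptor for interleukin 5, read 5.86, 5.02, 4.99 and 3.14 CPM at 12 PM and was at 0 counts in all 4 libraries at 4 PM, at least 29.2-fold lower with 3 counts taken as the floor of each library. In 4 PM replicate 3, Glycam1 stood at 12.96 CPM. The mixed ad-lib 12 PM libraries ran from 0 to 15.1 CPM in Il5ra. Ccl11, an eosinophil chemokine chosen after its values were seen, went the other way, from 32.5 to 45.4 CPM to 82.8 to 127 CPM (1.31, adjusted p = 0.155, and 0.00558 in the 8 libraries alone; 0.64 with the covariate). Over the 11 type 2 immunity genes tested, 1 was higher and 3 lower at a nominal p under 0.05 (4.06% and 13.2% of all genes). Whether node RNA accounts for any of these values was not tested.

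A pair of genes outside the lists is named because of the size of p, after the values were seen. Dtx4, a Notch pathway ubiquitin ligase, read 46.3 to 54.7 CPM at 12 PM and 15.3 to 31.6 CPM at 4 PM, without overlap (log2 fold change -1.20, adjusted p = 0.113). With the lymphocyte covariate it was at -1.68 (adjusted p = 0.0147) and joined Arntl as the only genes called there. Its ad-lib value was -1.44. Ctps, the enzyme that makes CTP, read 21.3, 17.7, 16.8 and 16.9 CPM at 12 PM and 8.61, 10.2, 8.10 and 8.71 CPM at 4 PM (-1.03, SE 0.21, adjusted p = 0.110; -0.88 with the covariate). In ad-lib libraries Ctps differed by 0.19, and the difference between diets was -1.22 (adjusted p = 0.067).

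Between diets, the median difference of TAN from ad-lib was -4.97 for B cell markers, -2.65 for proliferation, 1.20 for adipocyte markers and 1.62 for adipokines, beside -0.16 over all genes. Lep differed by 0.97 in TAN and -1.84 in ad-lib, a difference of 2.81 (adjusted p = 0.0672), and Srebf2 by -1.03 and 0.80, a difference of -1.83 (adjusted p = 0.067). Under the lymphocyte covariate these differences were 0.77 and -0.62. Ad-lib libraries with and without node RNA at 12 PM enter this test. Leaving out ad-lib 12 PM replicate 4 (2731 CPM of node markers) gave 1396 genes higher and 1721 lower at an adjusted p under 0.05. Leaving out replicate 2 of that group (3577 CPM) gave 0 and 0. Leaving out any of the remaining libraries labelled 12 PM or 4 PM, in either diet, gave 0 or, without TAN 4 PM replicate 3, 1 (F730311O21Rik).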

How the data were processed

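The authors deposited raw counts per gene for each library, without normalization, and FPKM averaged per diet and time, which were not used. Libraries were poly-A selected and paired-end; strandedness and counting tool are not given in the sources used here, the submitters' processing notes name TopHat 1.3.3 (an aligner) and DESeq2 1.20.0 among other tools without saying how each was used, and 98.1% of 54532 gene models have the coordinates of GENCODE M21 (GRCm38). Genes were kept by filterByExpr (minimum count 10), scaled with TMM, and fitted with edgeR 4.0.16 (robust quasi-likelihood, 48 libraries in 12 groups, R 4.3.3); p-values were adjusted by Benjamini-Hochberg over 19977 genes. CPM values use TMM-scaled totals. DESeq2 1.42.0, limma voom (limma 3.58.1), other filters, scalings, covariates and subsets were alternatives, and the models were tested on simulated data. The simulated counts were drawn independently, with no differences in node or muscle RNA between libraries. The simulation therefore does not bear on such differences. The 2-covariate fit and the scaling to adipocyte markers were added after seeing the data. Libraries and lists were chosen with earlier results of these data known. Reads shared with paralogs or antisense genes cannot be separated. Genes were named if called with a log2 change above 1 and no overlap (up to 12 a direction; only Arntl), if among the leading 4 of a list or a called member, or if among the 6 genes a direction with the smallest p for the diet difference that were also called (none); others were chosen after their values were seen. Some listed genes count in the lists but are not reported here. Intervals were not computed, and a count of 0 allows up to 3 counts, counting error only.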

Additional observations from a re-analysis of the deposited data

Results flagged for a closer look

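In groups of 4 libraries, Dixon's test at 95% singled out 10 of 130 groups tested, where chance alone gives about 1 in 20. At 4 PM, replicate 3 stood above the other 3 libraries in the summed lymph node markers (649 CPM against 25.3 to 80.2 CPM), Cd3e (15.4 against 0.973 to 1.45 CPM), Glycam1 (12.96 against 0 to 0.558 CPM) and total counts (23.8 M against 19.2 to 19.7 M). At 12 PM, replicate 1 stood above the others in Acta1 (578 against 16.96 to 98.7 CPM), Ckm (217 against 1.06 to 36.1 CPM) and Trim63 (9.05 against 0.0728 to 0.525 CPM), which are muscle genes. Also at 12 PM, replicate 4 was high in Acaca (2163 against 1236 to 1312 CPM), and replicate 3 had the largest share of counts on loci annotated as to be experimentally verified (0.109% against 0.0762% to 0.0795%). The value of Ckm in 4 PM replicate 2, 0.162 CPM, is 3 counts beside 0 in the other 3.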

How the results depend on the processing

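Arntl was the only gene called also with no filter, with at least 10 counts in every library, RLE factors, mitochondrial genes left out, lymphocyte and muscle covariates, or the replicate number as a block (0 genes higher, 1 lower). The lymphocyte covariate gave 0 higher and 2 lower, and scaling to adipocyte markers, limma voom and the 24 TAN libraries alone gave 0 and 0 (at a nominal p under 0.05, 31 and 3774, 758 and 3068, and 806 and 2679). DESeq2 gave 92 higher and 688 lower, and the 8 libraries alone 149 and 661; leaving out 1 library gave 0 higher and 0 to 1 lower. For the difference between diets, DESeq2 gave 1059 higher and 1291 lower, limma voom 504 and 2187, the replicate block 0 and 0 (nominally 2172 and 3359), and leaving out 1 library 0 to 1396 higher and 0 to 1721 lower. The cause was not tested. The lymph node marker difference lay between -5.27 and -3.71 with 1 library left out, and without a 12 PM library its exact p was 0.0571. Same-numbered TAN libraries did not deviate together (correlations over 5000 genes of -0.0762, -0.577, -0.376 and 0.230). The main fit used no pairing, and these correlations cannot exclude a pairing by number.

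Of 59 genes followed, 46 kept their sign in every alternative. With the lymphocyte covariate, the sign turned for Cry2 (-0.23), Scd1 (-0.66), Adipoq (-0.062), Pnpla2 (-0.35), Gpihbp1 (-0.029), Cd3e (0.69) and Glycam1 (0.21). With lymphocyte and muscle covariates it turned for Scd1 (-0.50), Adipoq (-0.11), Lep (-0.12), Pnpla2 (-0.13), Gpihbp1 (-0.0082), Cd3e (0.51) and Glycam1 (0.22), and with adipocyte scaling for Cry2 (-0.31), Scd1 (-0.25), Pnpla2 (-0.30) and Lipe (-0.00061). With 1 library left out it turned for Fasn (-0.27 to 0.18), Acaca (-0.75 to 0.24), Elovl6 (-0.84 to 0.057) and Pdk4 (-0.32 to 0.23). Both fits with covariates use the level of the B and T cell markers, so they take out change in T cell genes by construction. The turned signs of Cd3e and of the node gene Glycam1 are therefore not separate results.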
